A study of Homo sapiens with 6 samples.

Results

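The AP-1 factor genes FOS, FOSB, FOSL1, FOSL2, JUN, JUNB, JUND, ATF3, BATF and BATF3 encode subunits of the transcription factor AP-1. Each gene was taken with its GENCODE span on hg19 and 20 kb on either side, and a SMARCA4 peak belonged to this window when it shared at least 1 bp with it. At least 1 peak lay in the window of 10 of the 10 genes, whereas 67.9% of the 20162 protein-coding genes had a peak in a window drawn in the same way. Together the 10 windows held 54 of the 28265 peaks, or 0.191% (95% Wilson confidence interval 0.146 to 0.249%). SMARCA4, also called BRG1, is an ATPase that drives the SWI/SNF chromatin remodelling complex, and its binding was mapped by ChIP-seq in K562, an established human leukaemia line with erythroid features. There were 3 SMARCA4 ChIP libraries and 3 Input libraries, all from K562 chromatin crosslinked with 2 mM DSG for 30 min and 1% formaldehyde for 10 min, and no other condition. The list holds the regions called in at least 2 of the 3 ChIP replicates, with a start and an end and no height, so that no spread between replicates can be given and no test over samples was possible. Intervals cover counting error only. A peak lay less than 1 kb away from an annotated transcription start site (TSS) at 9 of 9 erythroid and K562 marker genes. For markers of other cell types it was 1 of 8. Both lists were chosen with earlier results of these data known, so these counts are no independent check of the erythroid label.

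AP-1 is a dimer of basic leucine zipper (bZIP) proteins that binds a short palindromic element. FOS family proteins bind DNA only as partners of another bZIP protein, JUN family proteins also pair with each other, and ATF and BATF proteins join JUN proteins at AP-1 or related elements. Several of these genes are switched on within minutes of a growth or stress signal through MAP kinases, serum response factor (SRF) and CREB or ATF proteins, and AP-1 is known to bring the SWI/SNF complex to enhancers.

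Peaks were divided by position. A promoter peak lay within 1 kb of an annotated TSS of the gene itself, a distal peak lay over 1 kb from every annotated TSS, and the rest lay within 1 kb of a TSS of another gene. The 54 peaks comprised 13 promoter peaks, 21 peaks at TSSs of other genes and 20 distal peaks. Of the 10 AP-1 factor genes, 9 had a promoter peak, against 48.1% of all protein-coding genes, and the exception was BATF. Distal peaks were present for 8 of the 10 genes, against 39.4% of all protein-coding genes, and were lacking for FOSL2 and BATF3. Both kinds were found together at 7 genes, against 26.2% of all protein-coding genes. The number of peaks per window ran from 1 at FOSL2 and BATF3 to 14 at JUNB, and the median of 5.00 peaks per window compares with 2.00 over all protein-coding genes.

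**Figure D1:**
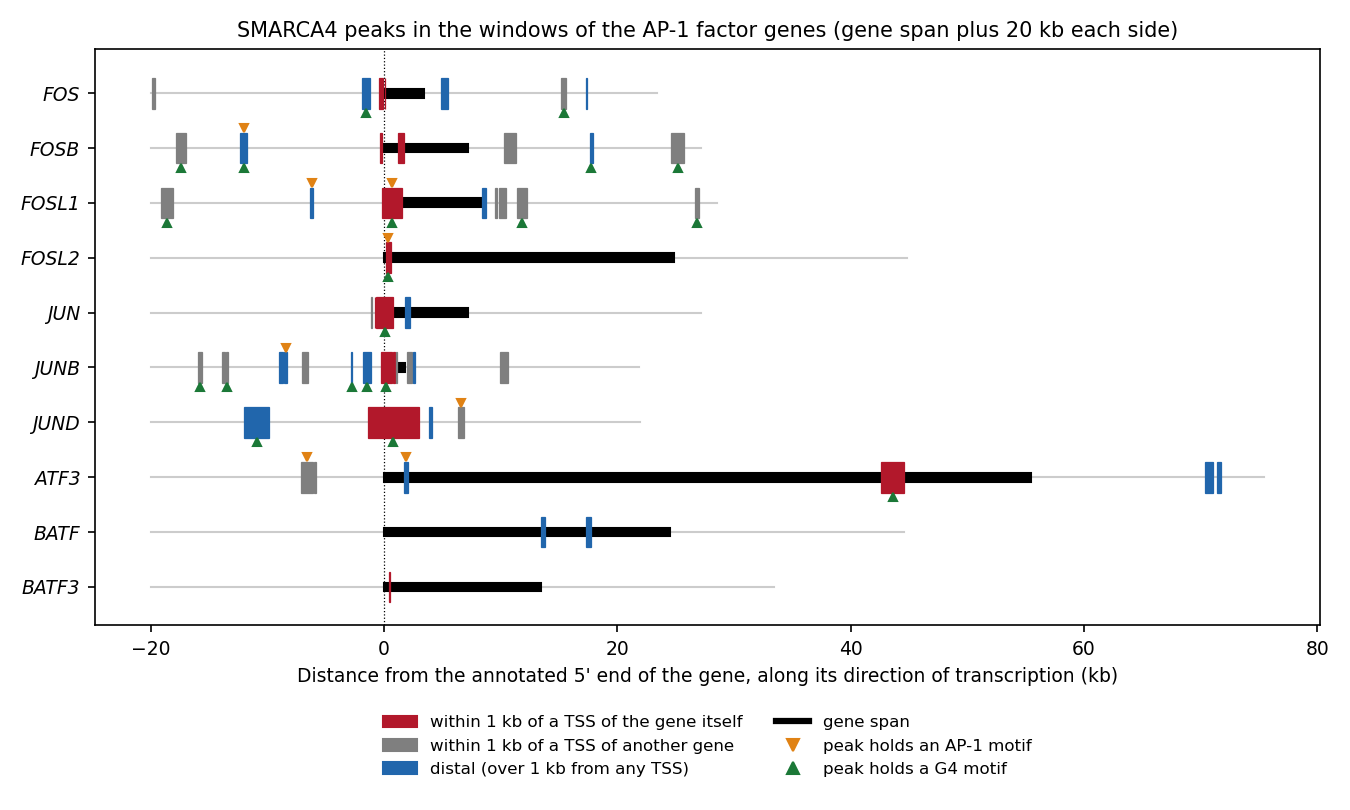
Map of the SMARCA4 peaks in the 10 windows, drawn to scale, with the distance from the annotated 5′ end of each gene in kb on the horizontal axis and positive values in the direction of transcription. Bars are peaks coloured by class, black lines are gene spans, and triangles mark peaks that hold an AP-1 or a G4 motif. The 14 peaks around JUNB and the lack of a peak near the 5′ end of BATF can be seen.

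Sequence motifs were searched on both strands within whole peaks. The AP-1 motif was TGACTCA, which reads TGAGTCA on the other strand, and 17.3% of all peaks held it. The GATA motif was AGATAA or AGATAG, with A or T as the first base, the site of the GATA factors that lead erythroid transcription. The CArG box is the site of SRF, the CRE motif TGACGTCA is bound by CREB and ATF proteins, and the SP/KLF motif was GGGCGG. A G4 motif had 4 guanine runs of 3 or more bases each, joined by loops of 1 to 7 bases, a sequence that can fold into a G-quadruplex, and it can contain GGGCGG. A match is a stretch of letters and carries no information on what is bound there.

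FOS encodes the AP-1 subunit best known for its transient induction by serum. The gene lies at chr14:75745529-75748933 on the plus strand, no other protein-coding gene starts in its window, and the window held 7 peaks with 16.1 peaks per 100 kb. Its main promoter peak, chr14:75745134-75745470, was 337 bp wide and ended 59 bp upstream of the TSS, and a peak of 23 bp lay 148 bp further on in the non-coding part of an exon. The 5′ end of the gene therefore fell into the gap between these peaks. The promoter peak held a CArG box whose centre was 308 bp upstream of the TSS. FOSB, whose product resembles that of FOS, lies at chr19:45971253-45978437 on the plus strand and showed a like arrangement, with a promoter peak of 179 bp at chr19:45970936-45971114 that ended 139 bp upstream of the TSS and a CArG box 268 bp upstream of it. Both stretches are shown because they place the SRF element inside a promoter peak of each gene, and they were chosen after their values were seen. Capitals mark the CArG box, and the sequences are on the plus strand, chr14:75745197-75745246 for FOS and the whole peak for FOSB.
FOS CArG box with flanks: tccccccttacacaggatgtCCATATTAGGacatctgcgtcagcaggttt
FOSB promoter peak: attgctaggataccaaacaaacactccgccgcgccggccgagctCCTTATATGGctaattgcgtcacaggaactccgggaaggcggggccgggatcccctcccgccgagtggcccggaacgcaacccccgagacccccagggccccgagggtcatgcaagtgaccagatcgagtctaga

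The CArG box occurred in 6 of the 54 peaks (11.1%, Wilson interval 5.19 to 22.2%), against 2.41% of all peaks. The share rose with width over all peaks, from 0.658% at 1 to 200 bp and 1.25% at 201 to 400 bp to 3.24% at 401 to 800 bp and 6.15% above 800 bp, and the 6 peaks ranged from 179 bp at FOSB to 4443 bp at JUND. Besides FOS and FOSB, it was found in the promoter peak of JUND, in a distal peak upstream of JUNB with the box 1534 bp before the TSS, and in 2 peaks at TSSs of other genes in the FOS and FOSB windows. Promoter peaks accounted for 3 of the 6.

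Around FOS, the other peaks were a distal peak of 672 bp and 72.5% GC centred 1530 bp upstream of the TSS, which held a G4 motif and a GATA motif, and a distal peak of 637 bp centred 5178 bp downstream of the TSS, past the 3′ end of the gene, which had 46.6% GC and held a GATA motif. A last distal peak of 96 bp and 2 peaks at TSSs of non-coding genes lay further out. No FOS peak held an AP-1 motif, and the whole FOS window held only 1.

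The FOSB window also held 7 peaks, and 3 of them were at TSSs of other genes, the DNA repair gene ERCC1 and RTN2. A second promoter peak of 515 bp, chr19:45972446-45972960, lay in the first part of the gene, 174 bp before an internal TSS at 45973134. The distal peak chr19:45958947-45959549 (603 bp, 67.8% GC), centred 12005 bp upstream of the TSS in an intron of ERCC1, carried 2 AP-1 motifs and 2 G4 motifs. FOSB was thus a gene with the AP-1 motif in a distal peak and not in a promoter peak. Both motifs are shown with 20 bases on either side, the AP-1 motif in capitals, on the plus strand, at chr19:45959132-45959178 and chr19:45959348-45959394.
FOSB distal motif 1: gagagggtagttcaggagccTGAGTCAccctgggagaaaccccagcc
FOSB distal motif 2: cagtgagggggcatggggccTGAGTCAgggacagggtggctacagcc

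FOSL1, which encodes FRA-1, lies at chr11:65659520-65668044 on the minus strand in a gene-dense region and had 8 peaks in its window. Of these, 5 were at TSSs of neighbours, namely EFEMP2, FIBP, CCDC85B (2 peaks) and, with 1 shared peak, C11orf68 and DRAP1. The promoter peak chr11:65666505-65668248 was 1744 bp wide, covered the 5′ end, had its centre in an intron and held 2 AP-1 motifs, 4 G4 motifs and 2 GATA motifs. Only 264 of all peaks were wider. FOSL1 was the one gene of the 10 with an AP-1 motif both in the promoter peak and in a distal peak. FOSL2, which encodes FRA-2, lies at chr2:28615315-28640184 on the plus strand and had a single peak in a window of 64.9 kb. This peak of 437 bp, chr2:28615479-28615915, covered an annotated TSS and had its centre in a coding exon, and it held 1 AP-1 motif and 3 G4 motifs, so that the lone FOSL2 peak combined both motifs. As many peaks or more were present for 67.9% of all protein-coding genes.

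JUN encodes the founding member of the JUN family, and the gene lies at chr1:59242517-59249720 on the minus strand. Its promoter peak chr1:59248951-59250371 was 1421 bp wide, covered the 5′ end and held 3 G4 motifs, 8 SP/KLF motifs and no AP-1 motif. Upstream, a fragment of 13 bp lay 95 bp from the promoter peak and a fragment of 55 bp lay 271 bp beyond it. Downstream of the 5′ end, a distal peak of 380 bp had its centre in the non-coding part of an exon. Whether such narrow fragments are separate binding sites was not tested. None of the 7 AP-1 motifs of the JUN window lay in a peak.

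JUNB, whose product often restrains JUN, had the most peaks of the 10 genes. It lies at chr19:12902300-12904129 on the plus strand, and its window of 41.8 kb held 14 peaks, a number that 0.352% of all protein-coding genes reached or passed. With 33.5 peaks per 100 kb it stood far above the median of 1.82 over all protein-coding genes and the 95th percentile of 11.6. The peaks covered 12.3% of the window, against a median of 0.703% over all protein-coding genes. A promoter peak of 930 bp, chr19:12902026-12902955, spanned the TSS, a peak of 157 bp followed inside the coding sequence, and 5 pairs of neighbouring peaks were separated by 71 to 114 bp. Joining peaks at most 500 bp apart left 9. Of the 14 peaks, 7 were at TSSs of other genes, of which 2 lay near the TSS of a non-coding HOOK2 transcript at 12903396, within JUNB itself. The antioxidant gene PRDX2 and THSD8 shared the peak at the far end.

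Of the 5 distal JUNB peaks, 1 held AP-1 motifs. This peak, chr19:12893781-12893983, was 203 bp wide, lay 8418 bp upstream of the JUNB TSS at its centre, in an annotated intron of HOOK2, and held 3 AP-1 motifs. At least 3 AP-1 motifs were present in 112 of all peaks (0.396%), of which 5 were as narrow as this peak or narrower. It is printed whole, on the plus strand, because it is a distal peak of at most 300 bp that holds the motif more than once and so shows the spacing of its copies. Capitals mark the AP-1 motifs.
JUNB distal peak: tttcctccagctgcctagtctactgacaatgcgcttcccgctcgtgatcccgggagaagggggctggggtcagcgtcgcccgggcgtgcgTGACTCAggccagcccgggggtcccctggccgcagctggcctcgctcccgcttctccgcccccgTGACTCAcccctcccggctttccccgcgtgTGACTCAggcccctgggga

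This peak was GC-rich, with 70.9% GC, and the nearest of its 3 AP-1 motifs lay 8 bp from the peak centre.

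JUND encodes the JUN protein that is present also in resting cells. The gene, chr19:18390504-18392432 on the minus strand, lay entirely inside a single promoter peak of 4443 bp, chr19:18389388-18393830, and only 4 of the 28265 peaks were wider. This peak held 8 G4 motifs, 21 SP/KLF motifs, a CArG box past the 3′ end of the gene and a CRE motif 196 bp upstream of the TSS. A distal peak of 2137 bp, chr19:18402278-18404414, followed 9846 bp upstream of the gene and held 7 G4 motifs. JUND thus had 4 peaks, as JUN did, but they covered 17.4% of its window, the highest share of the 10 genes, against 3.96% at JUN and a median of 0.703% over all protein-coding genes. The CRE stretch, chr19:18392605-18392652, is shown on the strand of the gene because it places the element of the CREB and ATF proteins within the widest peak, with the CRE motif in capitals; it was chosen after its value was seen.
JUND CRE with flanks: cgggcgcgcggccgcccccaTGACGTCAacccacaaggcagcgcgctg

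The CRE motif was found in 2 of the 54 peaks, the other being upstream of ATF3, and in 1.81% of all peaks. Over all peaks its share rose with width, from 0.318% at 1 to 200 bp to 4.87% above 800 bp. The peaks at JUND and ATF3 were 4443 and 1044 bp wide. An AP-1 motif in the JUND window lay in a peak at a TSS of IQCN, and the remaining distal peak of 231 bp held neither motif.

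ATF3 encodes a stress-induced bZIP repressor. Its annotated span, chr1:212738676-212794119 on the plus strand, begins far upstream of the promoter that the widest ATF3 peak covered. This peak, chr1:212781311-212783223, was 1913 bp wide, was centred 10 bp from the TSS at 212782257 and held 5 G4 motifs. The annotated 5′ end of the gene itself had no peak within 1 kb, and the 2 kb around it had 45.8% GC. Upstream of the gene, a peak of 1044 bp at a non-coding TSS held 1 AP-1 motif, 1 CRE motif and 1 GATA motif. Downstream of the gene, 2 distal peaks of 686 and 292 bp held 5 GATA motifs and 1, respectively. Another distal peak, inside the gene, held an AP-1 motif.

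BATF and BATF3 encode small bZIP proteins that partner JUN proteins mainly in lymphocytes and dendritic cells. BATF, chr14:75988798-76013336 on the plus strand, was the one AP-1 factor gene without a promoter peak. Its 2 peaks, of 312 and 433 bp, lay within introns, and the nearer one began 13385 bp from the closest BATF TSS. The 2 kb around the 5′ end of BATF had 48.7% GC and a CpG ratio of observed to expected of 0.21, whereas BATF3 had 68.6% and 0.78. BATF3, chr1:212859759-212873182 on the minus strand, had a single peak of 121 bp, 400 bp inside the gene in an intron, which was narrower than 26843 of all peaks. None of the BATF and BATF3 peaks held an AP-1 or a G4 motif. With FOSL2 (0.674%), these genes had the least of the window covered among the 10, 0.226% at BATF3 and 1.15% at BATF.

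**Figure D2:**
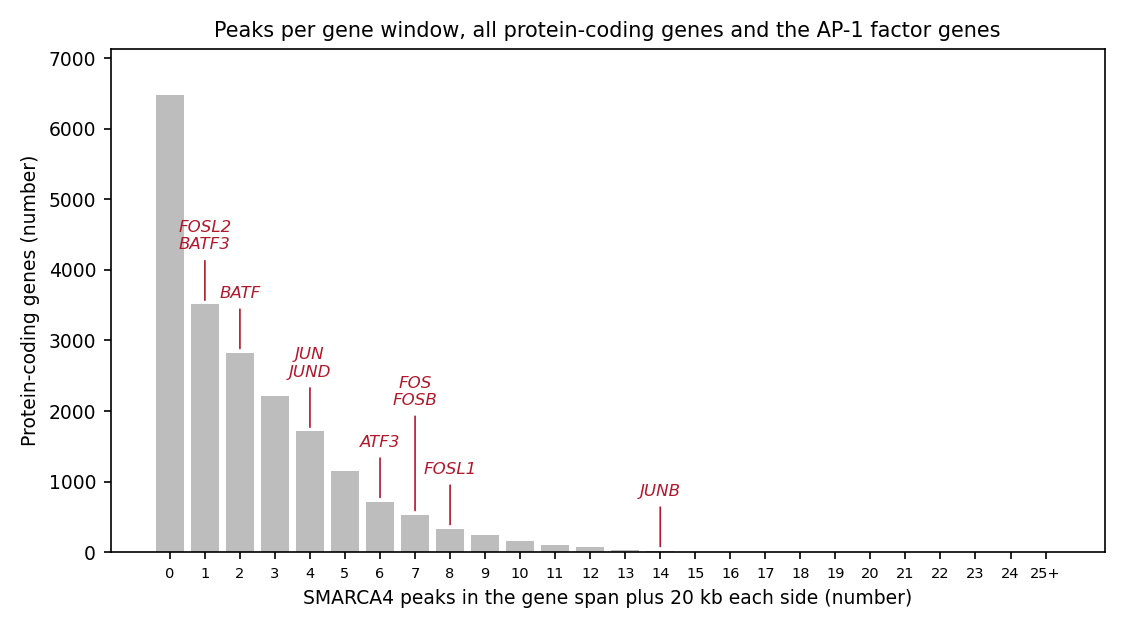
Number of SMARCA4 peaks in the gene span plus 20 kb on either side (horizontal axis) against the number of protein-coding genes with that number (grey bars, vertical axis), for 20162 genes. The AP-1 factor genes are named above the bar of their own number, from 1 peak at FOSL2 and BATF3 to 14 at JUNB.

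Windows differ in length, so density was compared as well. The 10 genes had a median of 9.01 peaks per 100 kb of window, from 1.54 at FOSL2 to 33.5 at JUNB, against 1.82 over all protein-coding genes. Density was above the 95th percentile of all protein-coding genes at FOS, FOSB, FOSL1 and JUNB, with 16.1, 14.8, 16.5 and 33.5 peaks per 100 kb. Peaks at TSSs of other genes are included in these numbers, 2 at FOS (both at non-coding genes), 3 at FOSB, 5 at FOSL1 and 7 at JUNB, and the part of neighbouring genes in the density was not tested. With a flank of 10 kb, FOS had 4 peaks and FOSB 3. By the number of promoter and distal peaks and the length covered, the protein-coding genes most like JUNB (2 promoter peaks, 5 distal peaks, 5148 bp covered) were ENSG00000288635, TENT5C and RNF43, with 7, 36 and 70 bp of difference among 69 genes with the same numbers. Those most like FOSL1 (1 promoter peak, 2 distal peaks, 5341 bp covered) were H2AC15, ANO8 and STIL, with 57, 81 and 102 bp of difference among 738 genes.

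Width is the only value of a peak beyond its position. The median of the 54 peaks was 376 bp, with quartiles of 209 and 682 bp and a range from 13 to 4443 bp, against a median of 368 bp and quartiles of 237 and 586 bp for all peaks. The medians were thus close, and the AP-1 factor peaks were more spread out on both sides. Promoter peaks had a median of 437 bp, peaks at TSSs of other genes 417 bp and distal peaks 325 bp. Widths over 1000 bp were reached by 9 of the 54 peaks (16.7%), against 6.75% of all peaks, and 12 (22.2%) were narrower than 200 bp, against 16.4%. The widest peaks were at promoters of JUND, ATF3, FOSL1 and JUN and at the distal site upstream of JUND.

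**Figure D3:**
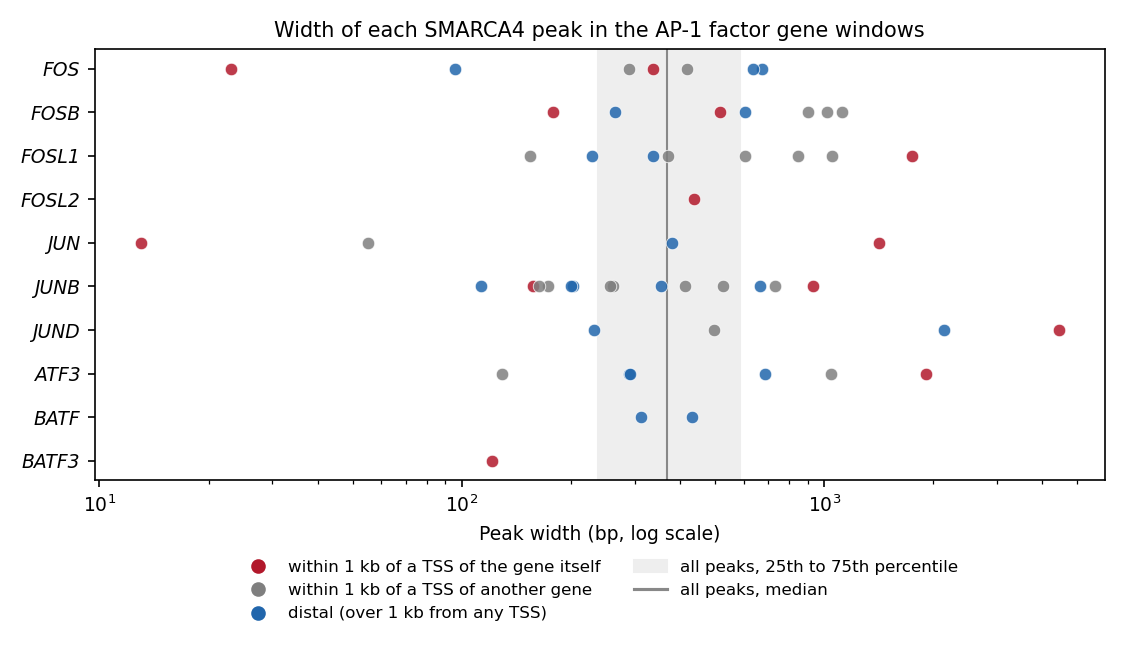
Width of each of the 54 peaks in bp on a log scale (horizontal axis), by gene and coloured by class. The grey band spans the quartiles of all 28265 peaks (237 to 586 bp) and the line marks their median of 368 bp. The JUND promoter peak of 4443 bp and the JUN fragment of 13 bp are the extremes.

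AP-1 motifs were found in 8 of the 54 peaks (14.8%, Wilson interval 7.70 to 26.6%), a share near that of all peaks (17.3%). The 12 motifs lay at FOSL1 (3), JUNB (3), FOSB (2), ATF3 (2), FOSL2 (1) and JUND (1). FOS, JUN, BATF and BATF3 had none in their peaks. Among distal peaks it was 4 of 20 (Wilson interval 8.07 to 41.6%), against 24.9% of all distal peaks, and among promoter peaks 2 of 13 (15.4%), against 8.53% of all peaks at TSSs of protein-coding genes. Seen from the sequence, the 10 windows held 91 AP-1 motifs, of which 12 lay in a peak (13.2%, Wilson interval 7.71 to 21.6%), against 1.28% of the 459778 motifs of the genome. This has to be read beside the length covered, since peaks took up 5.91% of the windows and 0.457% of the genome outside assembly gaps. In the peaks themselves there were 0.370 AP-1 motifs per kb, against 0.449 in all peaks.

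G4 motifs were present in 20 of the 54 peaks (37.0%, Wilson interval 25.4 to 50.4%), against 23.2% of all peaks. The share depended on the definition, with 61.1% against 33.9% for loops of up to 12 bases, and the order turned with runs of at least 4 guanines, at 1.85% (1 peak) against 3.62%. It also rose with width, from 7.81% of all peaks of 1 to 200 bp to 53.1% of those above 800 bp. In promoter peaks they were present in 6 of 13 (46.2%), against 39.8% of all peaks at TSSs of protein-coding genes, and in distal peaks in 6 of 20 (30.0%), against 8.23% of all distal peaks. Of these distal peaks with a G4 motif, 1 at FOS and 1 at JUNB lay only 1195 and 1113 bp from the TSS. With 2 kb in place of 1 kb around a TSS, 11 peaks were distal, and their motif shares are not given here. The distal AP-1 factor peaks were also richer in GC, with a median of 61.4% against 46.1% for all distal peaks, and the part of base composition in the G4 share was not tested. FOSL1, FOSL2, JUN, JUNB, JUND and ATF3 had a G4 motif in a promoter peak. FOS, FOSB and BATF3 had promoter peaks without one. The 24 G4 motifs in promoter peaks had their guanines on the transcribed gene's sense strand in 15 cases and on the other strand in 9. For each of the 6 genes, the motif closest to a TSS of the gene among those of at most 30 bases is shown, since these are the sequences by which the promoter peaks met the definition; picking the closest was decided after the values were seen. Capitals mark the guanine runs, and each sequence is on the strand that carries the guanines. Distances are to the nearest TSS of the gene, which is an internal TSS for FOSL2 (28615669) and ATF3 (212782257). The FOSL2 and ATF3 motifs therefore lie downstream of the annotated 5′ end of the gene. A loop may itself be a guanine, so the run of 7 guanines at JUND counts as 2 runs of 3 with a loop of 1 base. The positions are chr11:65668185-65668204, chr2:28615537-28615557, chr1:59249974-59249998, chr19:12902537-12902565, chr19:18392343-18392364 and chr1:212782225-212782242, in the order of the sequences.
FOSL1, 150 bp upstream of the TSS: GGGctGGGGcGGGGcgcGGG
FOSL2, 122 bp upstream: GGGagccGGGGctGGGaGGGG
JUN, 266 bp upstream: GGGGaGGGGaccGGGGaagagaGGG
JUNB, 251 bp downstream: GGGGaGGGtccctgcGGGGccgctccGGG
JUND, 78 bp downstream: GGGGGGGcgcGGGccccccGGG
ATF3, 24 bp upstream: GGGacGGGGtcGGGcGGG

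**Figure D4:**
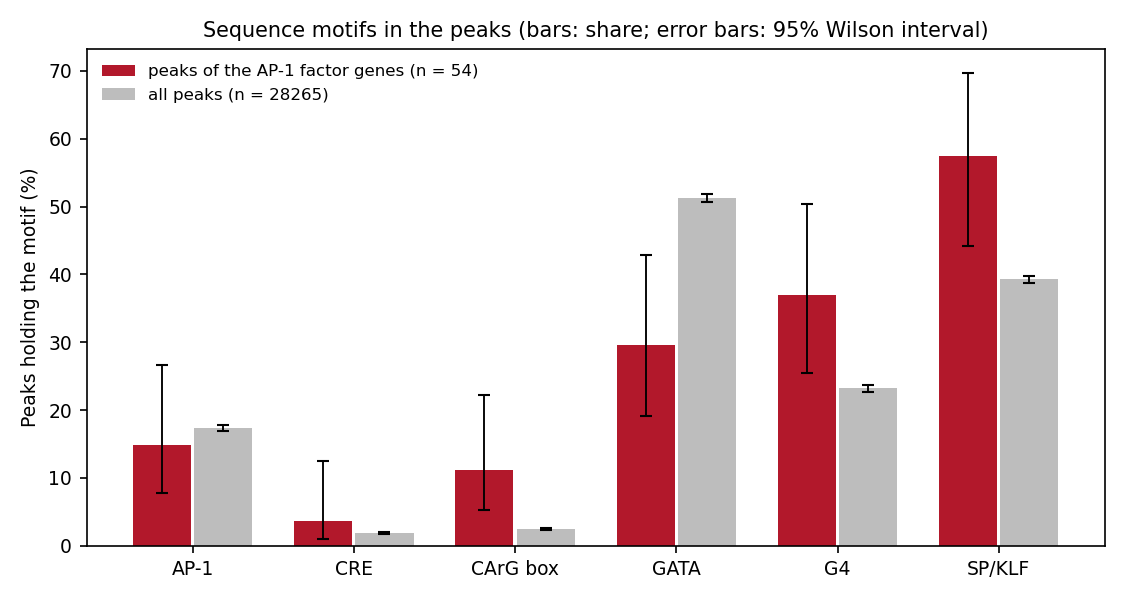
Share of peaks in percent (vertical axis) that hold each motif, for the 54 peaks of the AP-1 factor genes and for all 28265 peaks, with 95% Wilson intervals as error bars. The AP-1 shares (14.8% and 17.3%) lie close together, and the GATA share is lower around the AP-1 factor genes (29.6%) than in all peaks (51.3%).

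Of the other motifs, GATA was found in 16 of the 54 peaks (29.6%, Wilson interval 19.1 to 42.8%), against 51.3% of all peaks. In distal peaks it was found in 9 of 20 (45.0%), against 71.3% of all distal peaks. The SP/KLF motif showed the opposite order, with 31 of 54 peaks (57.4%, Wilson interval 44.2 to 69.7%) against 39.3%. This order was found in distal peaks, with 9 of 20 (45.0%) against 14.7%, but not in promoter peaks, with 8 of 13 (61.5%) against 66.5% of all peaks at TSSs of protein-coding genes. The distal shares of both motifs rest on the 1 kb limit around a TSS. The AP-1 factor peaks had a median GC content of 65.4% and all peaks one of 53.2%, and the part of base composition in these shares was not tested. Of the 20 distal peaks, 1 held an AP-1 and a GATA motif together, at FOSL1. The share of all distal peaks with both motifs is not given here, so this count cannot be called low or high.

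The other genes of the pathway were examined in the same way, and their numbers are to be read beside the 67.9% of all protein-coding genes with a peak and the 48.1% with a promoter peak. Of the 21 other bZIP factors, 19 had a peak and 17 a promoter peak. NFE2, the erythroid bZIP subunit, and its small MAF partner MAFG had the most peaks, with 18 and 10. Among 18 MAP kinases and their kinases, 15 had a peak and 12 a promoter peak, with none at MAPK10, MAP2K4 and MAP2K6 and 7 at MAPK14, a kinase of the stress pathway. SRF and its partners had a peak at 8 of 9 genes and a promoter peak at 7, with none at ELK3 and 6 each at MEF2D and MRTFA. Of 7 dual specificity phosphatases, which switch MAP kinases off, 6 had a peak and 5 a promoter peak, with none at DUSP2 and the most at DUSP16 (4) and DUSP1 (3).

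Of 14 AP-1 target genes, 8 had a peak and 5 a promoter peak, against 67.9% and 48.1% of all protein-coding genes, with none at the collagenase gene MMP1, MMP3, CD44, CCND1, IL2 and CSF2 and 7 each at VEGFA and VIM. The other immediate early genes, which respond to the same signals as FOS and JUNB, had numbers close to those of the AP-1 factor genes, with a peak at 13 of 13 and a promoter peak at 12, EGR3 being the exception. Their median of 9.13 peaks per 100 kb was near the 9.01 of the AP-1 factor genes, and SGK1 and BTG2 had the most peaks, 10 and 9. The median was 3.78 peaks per 100 kb for other bZIP factors, 3.09 for the phosphatases, 2.98 for AP-1 target genes, 2.77 for the MAP kinases and 2.25 for SRF and its partners. The erythroid markers with the most peaks were HBG2 (11) and HBE1 (9), whose long windows gave them only 3.76 and 3.25 peaks per 100 kb, below the list's median of 7.15. Among markers of other cell types CD3E, MS4A1, CD8A, ALB, KRT5 and NEUROD1 had none, while PAX5 had 1 peak, at its promoter.

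**Figure D5:**
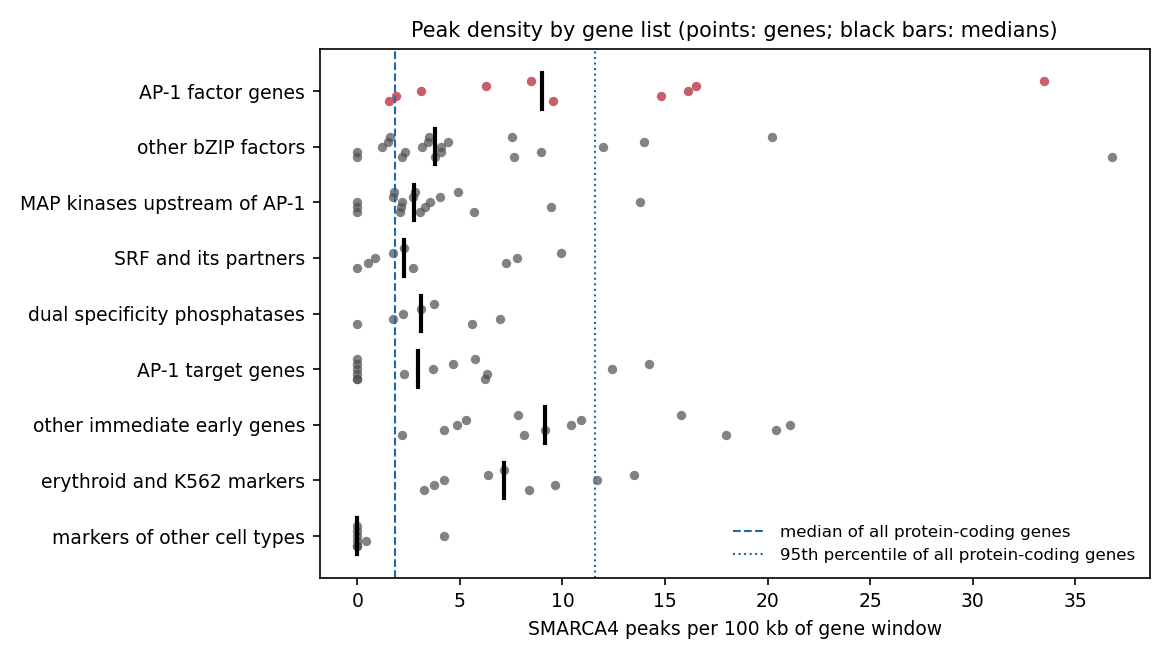
SMARCA4 peaks per 100 kb of gene window (horizontal axis) for each gene of the lists, with 1 point per gene and black bars at the list medians. Dashed and dotted lines mark the median (1.82) and the 95th percentile (11.6) of all protein-coding genes. The AP-1 factor genes and the other immediate early genes have the highest medians of the lists shown.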

How the data were processed

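SMARCA4 ChIP-seq of K562 was available as 1 list of peaks from 3 ChIP and 3 Input libraries. The labels call the ChIP replicates technical and count 1 input in one place, whereas the study's results section calls the replicates biological. The ChIP libraries carry a description that names G4 ChIP-seq beside the SMARCA4 antibody label. For the deposited list, the authors used cutadapt for adapter trimming, BWA for alignment on hg19, Picard and SAMtools against duplicates and MACS2 on each replicate (q-value threshold 0.05), and required a region in 2 or more of the 3 replicates. The deposited columns hold the chromosome, start and end in bp, with no score and no counts, so the depth behind a peak is unknown here.

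Windows, peak classes, motifs and Wilson intervals were computed with Python 3.11.15, numpy 2.4.6 and scipy 1.17.1 and drawn with matplotlib 3.10.9, from the hg19 sequence and the GENCODE annotation, release 44, on that build. Positions are counted from 1. TSSs of all annotated transcripts were used. Overlap, motif search and intervals were tested on simulated data. No test over samples was made; background shares are over all protein-coding genes or all peaks. Genes named were all 10 AP-1 factor genes and, for each other list, the genes without a peak and the 2 with the most, ties going to the one with more bp covered, plus up to 3 genes most like each of the 2 AP-1 factor genes with the most peaks, and neighbours with a TSS at a peak. EGR3 and PAX5 were named after their values were seen. Some genes and sequences that these rules select are not reported here. Sequences to show were AP-1 motifs of distal peaks, up to 3 distal peaks of at most 300 bp with the motif, and short G4 motifs of promoter peaks. The AP-1 factor genes and the lists were chosen with earlier results of these data known. Alternatives were peak sets, flanks, TSS distances and motif definitions.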

Additional observations from a re-analysis of the deposited data

How the results depend on the processing

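No paired analysis was possible because the peaks come as 1 list over the 3 replicates without replicate values, and leaving out single replicates was likewise not possible. With a flank of 50 kb in place of 20 kb, the windows of the 10 genes held 86 peaks, of which 84 were distinct because those of ATF3 and BATF3 then overlap, and 38 distal peaks. With 2 kb in place of 1 kb around a TSS, 11 peaks were distal. The share of AP-1 factor peaks with a G4 motif was 61.1% with loops of up to 12 bases and 1.85% with runs of at least 4 guanines, against 33.9% and 3.62% of all peaks, shares that were added after seeing the data. Over all protein-coding genes, the share with a peak in the window was 65.4% for peaks of at least 200 bp, 63.0% with a flank of 10 kb and 76.0% with one of 50 kb, alternatives that were chosen after seeing the data, as were those for single genes. Each alternative widens or narrows what is counted, and the cause of these shifts was not tested. The other 41 recomputed values stayed within the interval of the first value or, for counts, within 1.5 times of it. Among them, 42 peaks and 8 genes with a promoter peak remained when peaks under 200 bp were left out, which removes the only BATF3 peak, and 43 peaks were left when peaks at most 500 bp apart were joined. For single genes, 10 of 50 recomputed numbers moved by more than 1.5 times. With a flank of 10 kb FOS had 4 peaks and FOSB 3. JUNB had 9 joined peaks, and JUN had 2 peaks both when joined and when narrow peaks were left out. With TSSs of protein-coding transcripts only, 28 peaks were distal.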

Other observations

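Beyond the 20 kb flank the AP-1 factor genes differed in how soon further peaks followed. With a flank of 50 kb FOS had 8 peaks, 1 more than with 20 kb, and with 100 kb it still had 8, so that 7 of these 8 lay within 20 kb of the gene. JUNB went from 14 to 21 and 31 peaks, FOSB from 7 to 14 and 23, and JUND from 4 to 9 and 23, all on chromosome 19. FOSL2 went from 1 to 4 and 6 peaks and BATF3 from 1 to 3 and 8, which are peaks that the 20 kb rule does not assign to these genes. BATF had 4 peaks with a flank of 100 kb, the lowest number of the 10 genes. Which gene a peak acts on was not tested, and the wider flanks were chosen after the first values had been seen.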
